A study of Microtus ochrogaster with 34 samples.

Results

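In testes of the fossorial water vole Arvicola terrestris scherman, 161 of the 23038 genes in the table were raised in regressed winter testes and were also, to a lesser degree, raised in winter testes with ongoing spermatogenesis. The libraries came from wild, wild type males trapped in summer (S, July and August, n = 18) or in winter (January and February), with 1 library per animal, and were of reproductive age as judged by body weight. Winter males were sorted by the histology of their testes into W+ males (n = 5), with complete spermatogenesis, and W- males (n = 11), which did not maintain it. The W- group joined animals with empty seminiferous tubules and animals in an intermediate state, so that it is not a single histological state. All animals were kept in the same indoor light and temperature conditions after capture and before sampling, and no experimental treatment is named in the labels.

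The genes were chosen from the measured values themselves. Levels are in RPKM, which divides the reads of a gene by its exon length and by the size of the library, as deposited by the authors. A gene belonged to the set when its W- mean was at least 5 RPKM, its W- mean was at least 4 times its S mean and its W+ mean was at least 2 times its S mean. The first 2 conditions were met by 667 genes, and the third separated the 161 winter-raised genes from the 506 others. The differences from S in both winter groups are therefore a description. Counts of genes called by a fit across all genes are given beside the share of all genes called, and are not evidence for differences that the rule selected.

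In a breeding testis, most of the RNA comes from germ cells that pass through meiosis and then build the sperm tail, head and condensed chromatin. Around and between them stand somatic cells, namely Sertoli cells that nurse the germ cells, contractile peritubular cells, steroid-producing Leydig cells, vessels and immune cells. When a seasonal breeder stops spermatogenesis, meiotic and later germ cells are lost while Sertoli cells and spermatogonia remain, and the share of RNA from the remaining cells increases. In whole-testis RNA, fewer cells of a type and less RNA per cell cannot be told apart. The table names genes by Ensembl identifiers of the prairie vole, Microtus ochrogaster, and the RefSeq gene table of the same species used here held no Ensembl identifier, so that 0 identifiers matched. The lists of testicular cell type markers and pathways could thus not be applied, and the genes are described by their values.

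The third condition cut through a continuous distribution. The lowest ratios of W+ to S mean inside the set were 2.002, 2.002 and 2.005, and the highest outside it were 1.997, 1.996 and 1.993. For the ratio of W- to S mean, the nearest values were 4.01, 4.10 and 4.11 inside and 3.92, 3.88 and 3.76 outside. For the W- mean they were 5.10, 5.13 and 5.16 RPKM inside and 4.99, 4.96 and 4.91 RPKM outside. The set is thus the upper end of a gradient and not a separate class of genes.

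**Figure D1:**
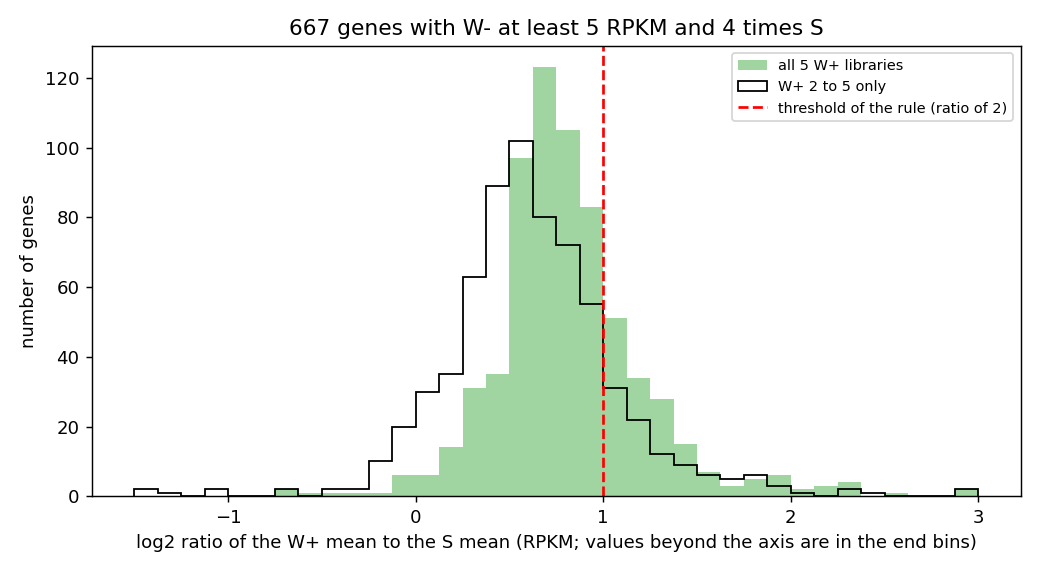
Number of genes (vertical axis) by the log2 ratio of the W+ mean to the S mean (horizontal axis) for the 667 genes with a W- mean of at least 5 RPKM and 4 times the S mean; filled bars use all 5 W+ libraries, the line uses W+ replicates 2 to 5 and the dashed line marks a ratio of 2. Both distributions have a single main peak below the dashed line, and 161 genes lie at or beyond it with all 5 libraries against 100 with 4.

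Most of the winter-raised genes were of low to moderate abundance. Their S means ran from 0.0375 to 12.3 RPKM with a median of 1.77, their W+ means from 0.640 to 26.9 RPKM with a median of 4.20, and their W- means from 5.10 to 137 RPKM with a median of 12.2. In S testes, 8 of them had a mean under 0.5 RPKM, 31 had 0.5 to 1 RPKM, 106 had 1 to 5 RPKM and 16 had more. In W- testes, 57 stayed under 10 RPKM and 12 exceeded 50 RPKM.

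The W+ increase over S was small for most genes and large for few. The ratio of W+ to S mean had a median of 2.30 and quartiles of 2.14 and 2.72. It lay between 2 and 2.5 for 105 genes, between 2.5 and 4 for 44 genes and at 4 or more for 12 genes. The ratio of W- to S mean had a median of 7.22 and quartiles of 5.40 and 9.60, with 98 genes under 8, 48 genes from 8 to 16 and 15 genes at 16 or more.

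The W+ mean stayed below the W- mean for each of the 161 genes. The rule fixed this order wherever the W+ mean was under 4 times S, which left only 12 genes free to differ. Single W+ and W- libraries often overlapped, since every W- value lay above every W+ value for only 66 genes. The W+ mean was a median of 33.9% of the W- mean, with a range of 7.92 to 64.6%. It was under 20% for 13 genes, from 20 to 40% for 97 genes and above that for 51 genes. For 160 of the 161 genes the W+ mean was nearer to the S mean than to the W- mean in RPKM. The rule fixed this for the 105 genes with a W+ mean from 2 to 2.5 times S, so that nothing is read from them. On the log2 scale, where 0 is the S mean and 1 the W- mean of log2(RPKM + 0.1), the median gene had its W+ mean at 0.438, with quartiles of 0.385 and 0.526. The same position had a median of 0.292 among the 506 other genes, a difference that the rule itself makes.

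Set library by library, the 3 groups of animals did not overlap in the median over the 161 genes of log2(RPKM + 0.1), taken relative to the S mean of each gene. S libraries had medians from -0.32 to 0.51, W+ libraries from 0.98 to 1.83 and W- libraries from 2.29 to 3.35. The genes were chosen on the means of these same libraries, so that the separation follows at least in part from the rule. The summed level of the 161 genes was 389 ± 66.5 RPKM in S libraries (SD, n = 18). It reached 966 ± 263 RPKM in W+ libraries (SD, n = 5) and 3000 ± 764 RPKM in W- libraries (SD, n = 11). Over all 19173 genes tested, the median relative to S stayed between -0.21 and 0.04 in every library. The sum of all RPKM in a library was lower in W- (389895 to 541075) and in W+ (470377 to 557930) than in S (633301 to 762254), and its part in the raised levels was not tested.

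**Figure D2:**
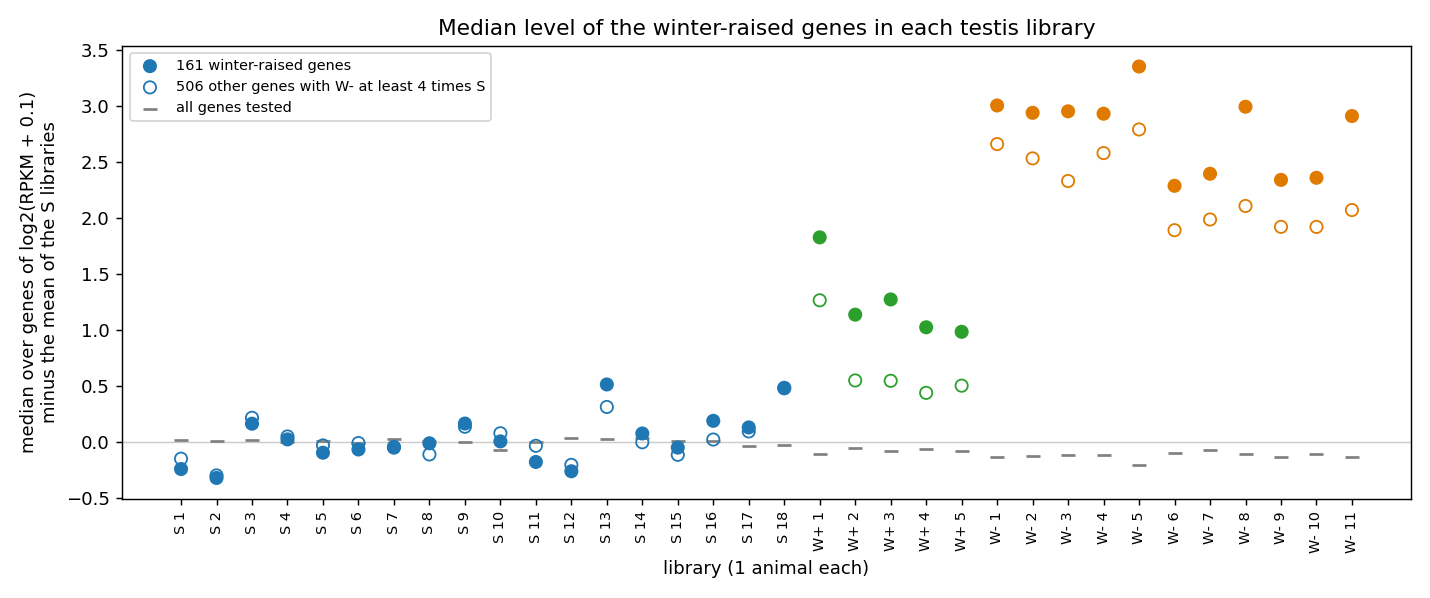
Median over genes of log2(RPKM + 0.1) minus the mean of the S libraries (vertical axis) in each of the 34 libraries (horizontal axis: blue S, green W+, orange W-); filled circles are the 161 winter-raised genes, open circles the 506 other genes with W- at least 4 times S and grey dashes all 19173 genes tested. W+ replicate 1 lies at 1.83 above the other W+ libraries (0.98 to 1.27), and W- replicates 6, 7, 9 and 10 lie lowest among W- (2.29 to 2.40).

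The raised W+ level was uneven among the 5 animals. Relative to S, the median log2 level of the 161 genes was 1.83, 1.14, 1.27, 1.02 and 0.98 in W+ replicates 1 to 5 in that order, and the summed levels were 1416, 825, 977, 768 and 842 RPKM. At least 2 times the S mean was reached by 140, 89, 105, 76 and 75 of the 161 genes in these libraries. W+ replicate 1 was thus the highest in all 3 measures, and the other 4 libraries were close to each other.

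W+ replicate 1 had the highest W+ value for 101 of the 161 genes (62.7%). This was not particular to them, since it was the highest for 74.1% of the 506 other genes and for 26.3% of all genes tested. The ratio of its level to the mean of the other 4 libraries had a median of 1.63 among the 161 genes, 1.67 among the 506 others and 0.915 over all genes tested. With this library left out, 95 of the 161 genes still met the rule and 66 did not, while 5 other genes came to meet it.

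W+ replicates 2 to 5 also entered the W+ mean that chose the genes, so that their levels are a description. For the 66 genes that needed W+ replicate 1, the mean of W+ replicates 2 to 5 was 1.27 to 2.00 times the S mean, with a median of 1.82. The 95 remaining genes had ratios from 2.00 to 31.2 with a median of 2.37. For all 161 genes the mean of W+ replicates 2 to 5 was above the S mean.

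**Figure D3:**
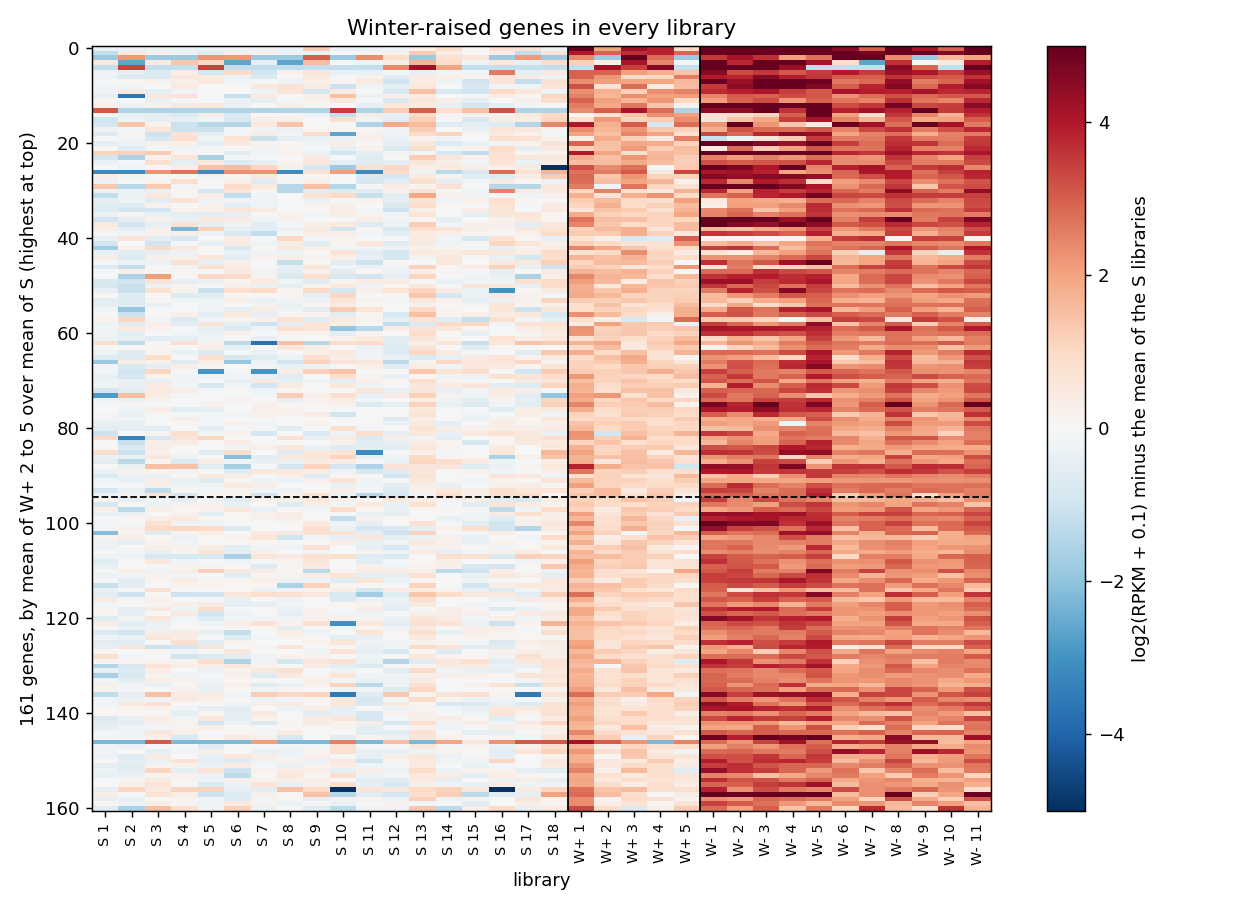
Colour gives log2(RPKM + 0.1) minus the mean of the S libraries for the 161 winter-raised genes (rows) in the 34 libraries (columns: S, W+ and W- between the solid lines), with rows sorted by the ratio of the mean of W+ replicates 2 to 5 to the S mean. The dashed line separates the 95 genes at a ratio of at least 2 without W+ replicate 1 (top) from the 66 others, and colours are cut at 5 either way.

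How many W+ animals shared the increase differed between genes. All 5 W+ libraries reached 2 times the S mean for 17 genes, 4 of them for 33 genes, 3 for 59 genes, 2 for 39 genes and 1 for 13 genes. Every W+ value lay above the S median for 132 of the 161 genes, against 13.9% of all genes tested. Every W+ value lay above every S value for 42 of the 161 genes (26.1%), against 0.84% of all genes tested and 24 of the 506 others. These counts follow in part from the choice of genes.

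The 42 genes whose W+ and S values did not overlap were among the better measured. They had a median S mean of 2.64 RPKM and a median of 1442 reads over the 18 S libraries, against 672 reads for all 161 genes. Their median ratio of W+ to S mean was 2.34. For 26 of the 161 genes (16.1%) the 3 groups were fully separate in the order S, W+, W-, as for 0.407% of all genes tested. W+ replicates 2 to 5 alone were above every S value for the same number of genes, 42.

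The W- level also varied between animals. The summed level of the 161 genes was 3788, 3507, 3428, 3522, 4160, 2094, 2169, 3132, 2153, 2046 and 3004 RPKM in W- replicates 1 to 11 in that order. W- replicates 6, 7, 9 and 10 were lower than the other 7 animals, with a gap between 2169 and 3004 RPKM. These 4 libraries held the lowest W- value of 96 of the 161 genes, and for 53 genes all 4 lay below each of the other 7. The shares of all genes tested were not computed, and the 4 libraries were picked on these levels, so that nothing is read from these 2 counts. W- replicate 5, the library with the fewest counted reads (2938627), held the highest W- value of 55 genes. The low level of W- replicates 6, 7, 9 and 10 was not particular to the 161 genes, since the median log2 level of the 506 others relative to S was also lowest in them, at 1.89 to 1.99 against 2.07 to 2.79. With these 4 libraries as the only W- animals, 55 of the 161 genes would not meet the rule. The libraries were picked as the lowest on these genes, so that nothing is read from this count either. This grouping was noticed in the data and is not given by the sample labels.

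Single genes did not all follow this order. W- replicate 1 had the highest W- value of 33 genes and the lowest of 19. In the 158 genes above 0 in every W- library, the highest W- value was a median of 4.37 times the lowest, under 3 times for 47 genes and at least 10 times for 18 genes. The SD of log2(RPKM + 0.1) over W- libraries had a median of 0.694 among the 161 genes, 0.534 among the 506 others and 0.369 among the 4018 tested genes at W- levels in the middle range of the 161. In S libraries the corresponding medians were 0.515, 0.421 and, over 2252 genes, 0.491, and in W+ libraries they were 0.570, 0.498 and, over 2770 genes, 0.404. The median SD of the 161 genes was thus above that of genes of like level in both winter groups, whereas in S the values were close. The rule used the winter means, which a single high library can raise. Most of the genes of like level did not pass the rule, although they include part of the 161. The difference may therefore follow in part from the choice of genes.

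Within S, replicates 13 and 18 stood highest. Their median log2 levels over the 161 genes were 0.51 and 0.48, against -0.32 to 0.19 in the other 16 S libraries. They held the highest S value of 45 and 38 genes, 83 of the 161 together. Without these 2 libraries, an alternative chosen after the values were seen, 201 genes met the rule. All 161 genes were among them, which leaving out the highest S libraries favours, since it lowers the S means. The medians of these 2 libraries were still below the lowest W+ library median of 0.98, an order that the rule favours. It did not hold gene by gene, since every W+ value lay above every S value for only 42 of the 161 genes.

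Calls were made with limma at an adjusted p under 0.05 (Benjamini-Hochberg over 19173 genes) and a log2 fold change beyond 1, and all 161 genes passed the filter on low values. For W- against S, all 161 genes were called higher, where 22.8% of all genes tested were, and every W- value lay above every S value for 130 of them, against 15.1% of all genes tested. The log2 differences ran from 1.46 to 5.67 with a median of 2.75. The rule used these groups, so that nothing is read from these counts.

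For W+ against S, 119 of the 161 genes were called higher and 0 lower, while 1.19% of all genes tested were called higher and 7.05% lower. The log2 differences ran from 0.50 to 3.47 with a median of 1.17, while the median of all genes tested was -0.06. The rule used these groups too. Of the 42 genes not called, 31 failed the rule once W+ replicate 1 was left out, and their median ratio of W+ to S mean was 2.11. Without W+ replicate 1, 68 of the 161 genes were called, and 0.763% of all genes tested.

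For W+ against W-, 132 of the 161 genes were called lower in W+ and 0 higher, while 15.4% of all genes tested were called lower and 21.9% higher. The log2 differences ran from -3.11 to -0.35 with a median of -1.51. Every W- value lay above every W+ value for 66 of the 161 genes, against 10.4% of all genes tested. Among the 506 other genes this held for 334 (66.0%, against 41.0% of the 161), and 496 of them were called lower in W+ (98.0%, against 82.0% of the 161). Both group means entered the rule, although their ratio did not, and the 3 comparisons share their libraries. The median difference of the 506 other genes was -1.60. Of the 29 genes not called, 20 were called higher in W+ than in S, and their W+ mean was a median of 49.8% of the W- mean.

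All 3 comparisons were called for 99 of the 161 genes, with medians of 1.89 RPKM in S, 4.49 RPKM in W+ and 13.0 RPKM in W- testes. The share of all genes tested called in all 3 was not computed. The rule used the means of all 3 groups, so that this count is a description. For 9 genes neither W+ comparison was called. These had a median of 76 reads over the 18 S libraries and 48 reads over the 5 W+ libraries, and the median standard error of their log2 difference between W+ and S was 0.73, against 0.30 for all 161 genes.

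Reads behind a value set the precision, and they were few for part of the set. Over the 18 S libraries a winter-raised gene had 9 to 11437 reads with a median of 672, over the 5 W+ libraries 5 to 4541 reads with a median of 342, and over the 11 W- libraries 47 to 37409 reads with a median of 3013. In 1 or more S libraries, 40 genes had under 3 reads, and 18 of these had 0 reads in at least 1 S library. Such a count was found for 9 genes in 1 or more W+ libraries and for 6 genes in 1 or more W- libraries. The whole set took 0.0623 to 0.122% of the reads in S, 0.20 to 0.424% in W+ and 0.774 to 1.51% in W- libraries.

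The genes with the steepest W+ increase were mostly low in S. The 12 genes with a W+ mean of at least 4 times S had a median S mean of 0.70 RPKM and a median of 269 reads over the S libraries, and 10 of them were called in W+ against S. All 12 still met the rule without W+ replicate 1. Their choice at 4 times S or more favours this, so that nothing is read from it. The 8 genes under 0.5 RPKM in S had W+ means from 0.640 to 4.87 RPKM and W- means from 6.65 to 24.9 RPKM. Of these 8 genes, 7 still met the rule without W+ replicate 1. At the other end, the 16 genes at 5 RPKM or more in S had a median ratio of W+ to S mean of 2.23 and a highest of 3.71.

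The identifiers given were selected by rank, as the highest W- mean and the highest ratio of W+ to S mean among genes with at least 0.5 RPKM in S. ENSMOCG00000002416 had the highest W- mean. In S, its values ran from 4.75 to 15.6 RPKM with a median of 9.07. In W+ replicates 1 to 5 in that order, it had 49.8, 16.3, 23.2, 20.4 and 15.5 RPKM. In W-, it ran from 58.2 to 295 RPKM with a median of 97.5. All W- values were above all W+ values, and W+ overlapped S only at their edges, with the lowest W+ value just under the highest S value. Its mean was 9.56 ± 2.99 RPKM in S (SD, n = 18), 25.0 ± 14.2 RPKM among W+ animals (SD, n = 5) and 137 ± 83.7 RPKM among W- animals (SD, n = 11). The log2 difference was 1.30 (standard error 0.31) for W+ against S and 3.66 (standard error 0.23) for W- against S. This gene depended on W+ replicate 1 for its place in the set, since the mean of the other 4 W+ libraries was 1.97 times the S mean.

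ENSMOCG00000003578 had the highest ratio of W+ to S mean above the minimum of 0.5 RPKM in S, at 4.98, and rested on few reads. Its values were 1.73, 0, 12.2, 2.35 and 0 RPKM in W+ replicates 1 to 5, from 12 reads in all. In S, it ran from 0 to 2.73 RPKM with a median of 0.215, from 13 reads over the 18 libraries. In W-, it ran from 0 to 32.0 RPKM with a median of 2.24, from 87 reads. The 3 groups overlapped, and W+ replicate 3 alone gave most of the W+ mean of 3.26 ± 5.11 (SD, n = 5) RPKM. The log2 difference between W+ and S was 1.34 with a standard error of 1.05 and was not called. Its ratio is thus less certain than that of the genes with separate groups.

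**Figure D4:**
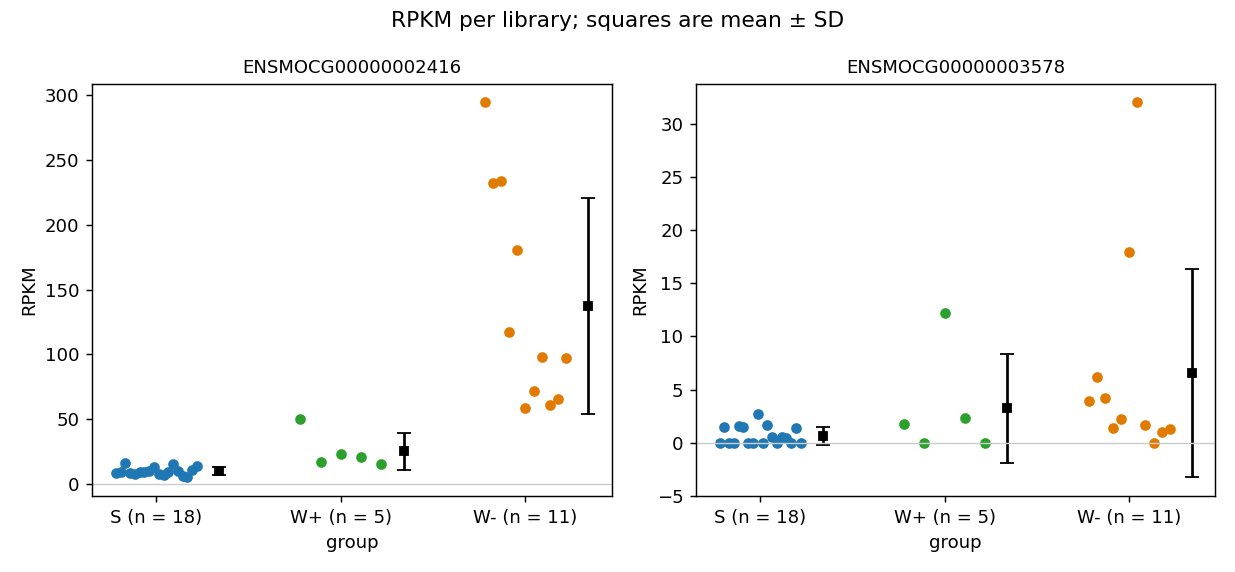
RPKM in every library (vertical axis) of ENSMOCG00000002416 (left) and ENSMOCG00000003578 (right) by group (horizontal axis), with black squares for the mean and bars for the SD. On the left, all W- values (58.2 to 295 RPKM) lie above all others, whereas on the right values at or near 0 occur in each group.

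The 161 genes and the 506 others were also set side by side as a description. The S, W+ and W- means entered the rule, so that differences in these levels and ratios follow in part from it. S levels of the 161 genes were lower, with medians of 1.77 and 3.04 RPKM, while the W+ medians were 4.20 and 4.67 RPKM and the W- medians 12.2 and 15.2 RPKM. Their ratio of W- to S mean was larger, with medians of 7.22 and 4.80. Exon length was read from what 1 read is worth, and the rule used it only through RPKM, which divides by it. Median exon length of the 161 genes was 1.26 times that of all expressed genes, against 1.02 times for the others.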

How the data were processed

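Testis mRNA libraries of 34 males (18 S, 5 W+ and 11 W-) were grouped by the sample titles, and each column was matched to 1 animal. Per the study's methods and the submitters' processing notes, single-end reads were trimmed with Trim Galore 0.6.10, checked with FastQC 0.12.1, aligned with Hisat2 to the prairie vole genome MicOch1, counted per gene with HTSeq-count and normalised with DESeq2. The authors deposited RPKM. Which annotation release and strand option were used, and how multiply aligned reads were counted, is not given in the sources used here. Alignment to another species can lower the level of diverged genes in all groups alike.

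For the 20821 genes above 0, all values were whole multiples of 1 read (tolerance 0.02 reads), which gave the reads per gene and 2938627 to 63857259 counted reads per library (S median 7504568, W+ 6440073, W- 7986021). Intervals were not computed from these reads, and they carry counting error only. The library size behind the RPKM was the median-of-ratios size factor. Rescaling by it gave a single factor, 0.984, for all libraries.

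Group means of the deposited RPKM defined the set. Limma 3.58.1 (R 4.3.3, eBayes with a trend) was fitted to log2(RPKM + 0.1) of 34 libraries together over 19173 genes with at least 0.1 RPKM in at least 5 libraries, and tested on simulated data. Fold changes of low genes are understated on this scale. Summaries used Python 3.11.15 and pandas 2.3.3. Alternatives covered the pseudocount, filter, scaling, fit, threshold and libraries left out. The genes and lists were chosen with earlier results of these data known. Identifiers were named by the rule on ranks given with them.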

Additional observations from a re-analysis of the deposited data

Results flagged for a closer look

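In each of 8 measures, the highest and lowest of the 5 W+ libraries were set against their neighbours, and in 4 measures a single library lay far away. Chance alone would give this in about 1 in 20 groups, but that rate does not hold here. The genes were chosen on a W+ mean that includes each of these libraries, which favours genes with a single high W+ library, and the 8 measures overlap in their genes. The values are therefore a description. W+ replicate 1 stood apart in the share of counted reads on the 161 genes, at 0.424% against 0.20 to 0.239% in the other 4, the gap being 0.827 of the whole W+ range with a limit of 0.71. It also stood apart in the median log2 level of the 506 other genes relative to S, at 1.27 against 0.44 to 0.55. For ENSMOCG00000002416 it had 49.8 RPKM against 15.5 to 23.2 RPKM. For ENSMOCG00000003578 W+ replicate 3 stood apart, at 12.2 RPKM against 0 to 2.35 RPKM. The median log2 level of the 161 genes themselves, 1.83 in W+ replicate 1, stayed under the limit with a gap of 0.657 of the range.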

How the results depend on the processing

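The number of genes that meet the rule depended most on scaling and on W+ replicate 1. It was 988 with each library scaled to the same sum of RPKM. With the same total of counted reads, chosen after the data were seen, it was 857. All 161 genes met the rule under both, which these scalings favour, since they raise winter levels against S. The number was 242 after quantile normalization (160 of the 161 among them) and 149 with group medians (106 of the 161 among them). With single libraries left out it ran from 100, without W+ replicate 1, to 194, without W+ replicate 4. The median of all genes tested in W- against S was 0.50 with equal sums and 0.54 with equal totals. In W+ against S it was 0.30 and 0.25, and in W+ against W- it was -0.25 and -0.34. Quantile normalization gave 0.36, 0.08 and -0.31 for these comparisons in the same order. The values below are to be read against these shifts. The median log2 difference of the 161 genes was then 3.35 (equal sums) and 3.40 (equal totals) for W- against S, 1.54 (equal sums) for W+ against S, and -1.87 (equal totals) for W+ against W-. In W+ against S, 78 of the 161 genes were called with a pseudocount of 0.5 (0.527% of all genes tested), and 153 with equal sums (6.1%) and with equal totals (4.88%). With single libraries left out, the count ran from 68 (0.763%, without W+ replicate 1) to 126 (1.36%, without S replicate 18). The calls in W- against S stayed at 161 under all 47 alternatives, with 18.4 to 38.6% of all genes tested called higher. The rule required a W- mean of at least 4 times S, so that nothing is read from this. Those in W+ against W- ran from 125 to 151, with 11.4 to 31.3% of all genes tested called lower. The median W+ position between S and W- ran from 0.392 to 0.478 under 46 alternatives. Leaving out W+ replicate 5 put 1 gene below S in W+, and no other alternative turned the direction of any of the 161 genes. The cause of these changes was not tested. Replicate numbers occur in all groups, but same-numbered animals did not deviate together (correlations of -0.16 to 0.14), and with the replicate block 91 of the 161 genes were called in W+ against S (1.88% of all genes in the same direction), 161 in W- against S (23.1%) and 126 in W+ against W- (17.3%). ENSMOCG00000002416 was not called in W+ against S under the block (log2 difference 0.89).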
